A study of Homo sapiens with 6 samples.

Results

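The genes described here encode 10 cytokine receptor chains of precursor B-cell leukemia, IL7R, FLT3, CSF2RA, CSF2RB, IL2RG, IL3RA, IL10RA, IL6ST, IFNGR1 and EPOR. They were chosen by name, and all 10 are among the 18216 genes in the values. RNA was sequenced from REH cells, an established human B-cell precursor leukemia line that carries the ETV6-RUNX1 fusion. The cells had been treated for 24 h with 200 nM SNS-032, an inhibitor of CDK9 and of related cyclin-dependent kinases, or with the solvent DMSO, and each group has 3 libraries. The values are FPKM, which are fragments scaled by transcript length and by the number of mapped fragments, so that genes can be compared within a library.

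All 6 libraries come from a single cell line, and nothing in the labels says whether the 3 libraries of a group came from separate cultures, so that the p-values measure the spread between libraries, which may be technical. Summed over all genes, a library held 457826 to 491886 FPKM, and its sequencing depth is unknown. Of 15 markers of B-cell precursors, 14 passed the filter on low values, and their summed level was 2205 to 2334 FPKM with DMSO and 1460 to 1633 FPKM with SNS-032. MME, which encodes the precursor antigen CD10, was at most 0.17 FPKM in every library. The T-cell markers CD3D and CD3E and the 4 erythroid markers in the values were at most 0.12 FPKM. Of the other T-cell markers, LCK measured 14.2 to 14.5 FPKM with DMSO and 3.03 to 3.34 FPKM with SNS-032, and CD3G at most 0.32 and 3.85 FPKM.

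Cytokine receptors of the type I and type II families have no kinase of their own. Their chains assemble around a ligand and bring together JAK kinases, which phosphorylate STAT transcription factors. FLT3 differs from them in that it is a receptor tyrosine kinase. In B-cell precursors, signals through the interleukin-7 receptor and FLT3 support survival and proliferation, while the GM-CSF and interleukin-3 receptors are known mainly from myeloid cells and early progenitors. EPOR, the receptor for erythropoietin, is known for its expression in leukemia with the ETV6-RUNX1 fusion.

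The promoters of 4 receptor genes are shown because these genes were the ones that moved furthest up or down, or are neighbours of one that did. Each line gives the 250 bases before the RefSeq start of the gene on GRCh38.p14, written 5′ to 3′ on the strand of the gene. Capitals mark a match to TATAAA, to the ETS-type motif CCGGAA or to the STAT-type motif TTCNNNGAA, searched on both strands, and the E-box CACGTG, also searched, is not in these windows. The matches in these windows do not overlap each other.
IL7R: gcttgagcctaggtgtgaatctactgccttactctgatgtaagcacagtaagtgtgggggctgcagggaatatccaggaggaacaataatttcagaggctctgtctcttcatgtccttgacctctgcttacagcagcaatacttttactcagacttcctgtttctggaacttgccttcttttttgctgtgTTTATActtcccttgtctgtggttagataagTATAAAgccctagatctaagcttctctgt
CSF2RA: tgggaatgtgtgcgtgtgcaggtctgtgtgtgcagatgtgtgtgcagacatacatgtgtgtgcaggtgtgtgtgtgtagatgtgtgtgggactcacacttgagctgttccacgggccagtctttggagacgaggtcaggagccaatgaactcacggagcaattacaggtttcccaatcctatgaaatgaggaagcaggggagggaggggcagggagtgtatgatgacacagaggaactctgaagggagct
IL2RG: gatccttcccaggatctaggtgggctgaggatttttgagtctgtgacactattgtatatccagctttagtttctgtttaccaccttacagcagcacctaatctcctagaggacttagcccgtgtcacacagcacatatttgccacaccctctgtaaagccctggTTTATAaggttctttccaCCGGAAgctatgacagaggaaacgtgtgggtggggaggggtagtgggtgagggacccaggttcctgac
IL3RA: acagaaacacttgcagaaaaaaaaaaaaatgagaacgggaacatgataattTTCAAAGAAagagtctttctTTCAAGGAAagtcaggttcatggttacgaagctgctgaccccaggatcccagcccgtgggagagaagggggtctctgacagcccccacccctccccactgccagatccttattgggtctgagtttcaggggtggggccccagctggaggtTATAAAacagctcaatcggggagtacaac

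The IL7R window, at chr5:35856641-35856890, holds TATAAA 29 bases before the start and on the other strand 60 bases before it, and has no CpG. The CSF2RA window, at chrX:1268564-1268813, holds none of the 4 motifs and has 4 CpG. In the IL2RG window, at chrX:71111578-71111827, the ETS-type motif lies 68 bases before the start and TATAAA, on the other strand, 86 bases before it. In the IL3RA window, at chrX:1336535-1336784, the STAT-type motif occurs at 199 and at 179 bases and TATAAA at 29 bases before the start. Of all 35116 windows of this length, 10.7% hold TATAAA, 14.5% CCGGAA, 6.57% TTCNNNGAA and 6.34% CACGTG. A match is a string of letters and was not tested as a binding site. The windows of these 4 genes have 0 to 4 CpG, that of IL10RA has 2 and that of EPOR 10, those of FLT3, IL6ST and IFNGR1 have 19 to 31, and the median over all windows is 11. A window was found for 9 of the 10 genes, with CSF2RB named only.

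The receptor genes changed in both directions after SNS-032. IL7R and IL2RG, the chains of the interleukin-7 receptor, fell, as did IL6ST, IFNGR1 and CSF2RB, while CSF2RA, the alpha chain of the GM-CSF receptor, rose to 12.5 times its level with DMSO and IL3RA rose to 1.91 times. FLT3 was at 108% of its mean level with DMSO. Of the 8 receptor genes tested, 5 were lower and 3 higher at an adjusted p under 0.05 from limma, which was fitted over 12239 genes. Among all genes tested 49.3% were lower and 39.9% higher, so 89.2% were called in one direction or the other, and the count among the receptors is close to this background. The 8 genes had a mean of at least 1 FPKM in both groups, whereas EPOR and IL10RA stayed under this limit in both groups and were not tested. Because FPKM are shares of a library, these values do not show whether a cell held less RNA in all, and fewer cells with a transcript cannot be told apart from less transcript per cell.

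**Figure D1:**
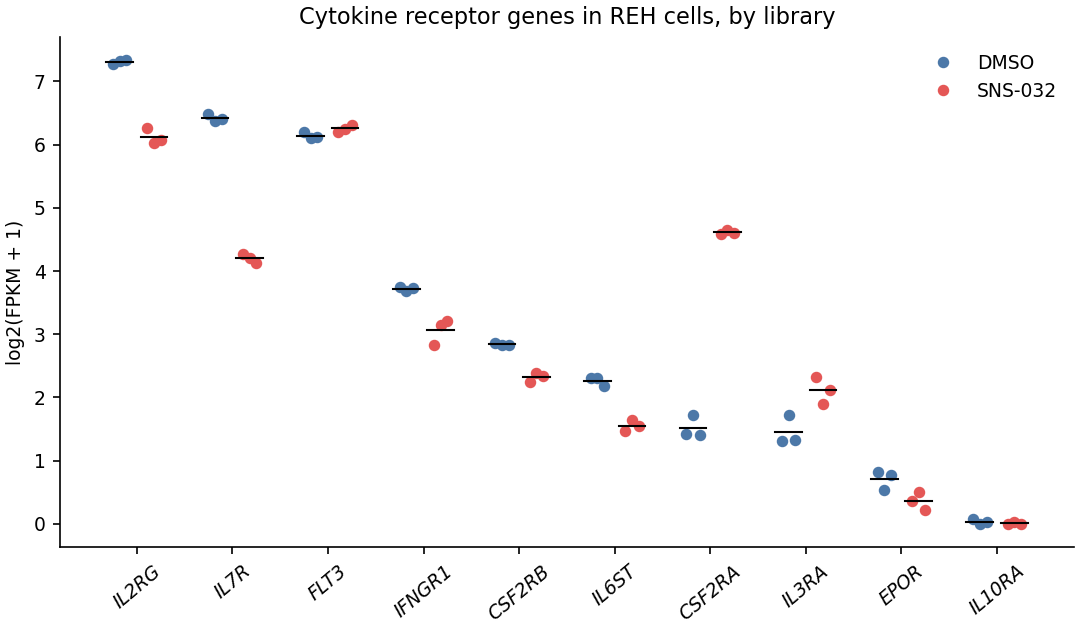
Level of each of the 10 receptor genes in each library, as log2(FPKM + 1) on the vertical axis, for 3 DMSO libraries (blue) and 3 SNS-032 libraries (red), with the mean of each group as a black line. Genes are ordered by their level with DMSO. CSF2RA stood at 1.66 to 2.29 FPKM with DMSO and at 23.1 to 24.1 FPKM with SNS-032, while IL7R went the other way.

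The order of the receptors by level differed between the treatments. With DMSO, IL2RG was the most abundant at 157 ± 4.01 FPKM (SD, n = 3), followed by IL7R at 84.5 ± 3.41 FPKM and FLT3 at 69.6 ± 2.52 FPKM. The next were IFNGR1 at 12.2 ± 0.267 FPKM, CSF2RB at 6.16 ± 0.0874 FPKM and IL6ST at 3.80 ± 0.243 FPKM. Libraries of neighbours in this order did not overlap, except for CSF2RA at 1.88 ± 0.355 FPKM and IL3RA at 1.77 ± 0.468 FPKM. With SNS-032, FLT3 at 75.4 ± 3.06 FPKM and IL2RG at 68.7 ± 6.36 FPKM led the order and overlapped each other. CSF2RA followed at 23.5 ± 0.513 FPKM, ahead of IL7R at 17.4 ± 0.857 FPKM. CSF2RB and IL3RA overlapped at 4.02 ± 0.238 and 3.37 ± 0.650 FPKM. The sum of the 10 genes was 335 to 340 FPKM with DMSO and 198 to 206 FPKM with SNS-032. IL7R made up 24.4% to 26.0% of this sum in the DMSO libraries and 8.15% to 8.86% in the SNS-032 libraries. The share of CSF2RA was 0.490% to 0.684% and then 11.2% to 12.2%.

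IL7R encodes the alpha chain that the receptors for interleukin-7 and TSLP share. It lies on chromosome 5 of GRCh38 from 35852695 to 35879603. Its level was 88.3, 81.8 and 83.4 FPKM in the DMSO libraries and 18.2, 17.5 and 16.5 FPKM in the SNS-032 libraries. Every SNS-032 library was far below every DMSO library, and the spread within each group was small. IL7R fell by 2.22 on the log2(FPKM + 1) scale (95% interval −2.33 to −2.10, adjusted p = 4.21e-12 from limma), which was lower than in all but 1.37% of the genes tested. In linear FPKM its level was 4.86-fold lower.

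IL2RG encodes the common gamma chain, which the receptors for interleukin-7, interleukin-15, interleukin-9, interleukin-21 and other cytokines share. It lies on chromosome X from 71107404 to 71112108. With DMSO it measured 153, 158 and 161 FPKM, and with SNS-032 75.9, 63.9 and 66.4 FPKM. The groups did not overlap, and SNS-032 replicate 1 was the highest of its group. IL2RG fell by 1.19 on the log2 scale (95% interval −1.32 to −1.06, adjusted p = 1.77e-09 from limma), 2.29-fold in linear FPKM. A gene model of the annotation, AL590764.2, overlaps IL2RG on the same strand over 4172 bases and is not in the values, so its reads cannot be told apart from those of IL2RG.

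FLT3, the receptor tyrosine kinase for FLT3 ligand, lies on chromosome 13 from 28003274 to 28100592. Its level was 72.5, 67.7 and 68.7 FPKM with DMSO and 72.5, 75.1 and 78.6 FPKM with SNS-032. The lowest SNS-032 library, at 72.50 FPKM, and the highest DMSO library, at 72.45 FPKM, were next to each other. The difference of 0.11 on the log2 scale (95% interval 0.01 to 0.22) had an adjusted p of 0.036 from limma. It did not hold up in 6 of the 12 alternatives, among them the replicate number as a block (adjusted p = 0.0635), libraries rescaled to a common total (adjusted p = 0.283), and leaving out replicate 2 or 3 of either group. Without these libraries the adjusted p was 0.132 and 0.110 for DMSO replicates 2 and 3, and 0.0647 and 0.124 for SNS-032 replicates 2 and 3. FLT3LG, which encodes its ligand, measured 2.11 to 2.42 FPKM with DMSO and 2.21 to 3.35 FPKM with SNS-032, and did not pass the test (adjusted p = 0.109 from limma).

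CSF2RA encodes the alpha chain that binds GM-CSF. It measured 1.69, 2.29 and 1.66 FPKM with DMSO and 23.1, 24.1 and 23.3 FPKM with SNS-032. The SNS-032 libraries were close together, and the lowest of them was 23.1 FPKM against a highest DMSO library of 2.29 FPKM. CSF2RA rose by 3.09 on the log2 scale (95% interval 2.91 to 3.28, adjusted p = 1.19e-11 from limma), above 99.0% of the genes tested. Its level moved from above 18.6% of the genes tested with DMSO to above 76.2% with SNS-032. CSF2, which encodes GM-CSF, was at most 0.09 FPKM in every library.

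IL3RA, the alpha chain for interleukin-3 also known as CD123, measured 1.48, 2.31 and 1.52 FPKM with DMSO and 4.03, 2.73 and 3.36 FPKM with SNS-032. The groups did not overlap, but the highest DMSO and the lowest SNS-032 library were only 2.31 and 2.73 FPKM. IL3RA rose by 0.66 on the log2 scale (95% interval 0.37 to 0.95, adjusted p = 0.000587 from limma). CSF2RB encodes the common beta chain, through which the GM-CSF and interleukin-3 receptors signal. It lies on chromosome 22 from 36913628 to 36940449 and measured 6.26, 6.09 and 6.14 FPKM with DMSO and 3.76, 4.23 and 4.06 FPKM with SNS-032. All SNS-032 libraries were lower than all DMSO libraries. CSF2RB fell by 0.51 on the log2 scale (95% interval −0.66 to −0.37, adjusted p = 1.3e-05 from limma).

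Markers of myeloid cells are given beside these chains because both receptors are used by such cells. Of 8 myeloid markers, LYZ, which encodes lysozyme, rose from between 2.96 and 3.26 FPKM with DMSO to between 15.7 and 17.7 FPKM with SNS-032, and CD14 rose from at most 0.14 FPKM to between 1.57 and 2.98 FPKM and passed the filter on low values through the SNS-032 group alone. The defining markers MPO and ELANE were at most 0.17 FPKM in every library, and the 6 markers other than LYZ and CD14 were at most 0.83 FPKM. The summed level of the list was 4.26 to 4.44 FPKM with DMSO and 18.5 to 21.5 FPKM with SNS-032. Its part in the rise of CSF2RA was not tested.

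CSF2RA and IL3RA lie next to each other in the pseudoautosomal region that the X and Y chromosomes share, on chromosome X from 1268800 to 1310381 and from 1336616 to 1382689. The annotation holds the same models on chromosome Y, and how the authors treated reads that map to both copies is not given in the sources used here. The genes around them, looked at after the values were seen, did not move together. CRLF2, the TSLP receptor chain on the other side of CSF2RA, was at 0 to 0.04 FPKM with DMSO and 0.11 to 0.49 FPKM with SNS-032 and was not tested. SLC25A6, an ADP/ATP carrier of mitochondria next to IL3RA, fell by 1.26 on the log2 scale, and P2RY8, a receptor of B cells, fell by 0.84. AKAP17A rose by 2.07, SHOX by 1.67 and CD99, a surface antigen, by 1.30. Apart from CSF2RA and IL3RA, 11 genes of the region were tested, of which 6 were higher and 4 lower, against 39.9% higher and 49.3% lower among all genes tested, and their median was 0.16 on the log2 scale against −0.14 for all genes tested.

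IL6ST encodes gp130, the signalling chain of the receptors for interleukin-6, interleukin-11, LIF and related cytokines. It lies on chromosome 5 from 55935095 to 55994993. Its level was 3.94, 3.94 and 3.52 FPKM with DMSO and 1.76, 2.13 and 1.91 FPKM with SNS-032. The groups did not overlap. IL6ST fell by 0.71 on the log2 scale (95% interval −0.89 to −0.54, adjusted p = 3.35e-06 from limma), 1.97-fold in linear FPKM. A lincRNA and an antisense gene overlap IL6ST on the opposite strand over 16746 and 5585 bases, and whether the libraries kept strand is not given in the sources used here.

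IFNGR1 encodes the ligand-binding chain of the interferon-gamma receptor, a type II receptor, and lies on chromosome 6 from 137197484 to 137219449. It measured 12.4, 11.9 and 12.3 FPKM with DMSO and 6.10, 7.82 and 8.29 FPKM with SNS-032. All SNS-032 libraries were below all DMSO libraries, with replicate 1 the lowest of its group. IFNGR1 fell by 0.66 on the log2 scale (95% interval −0.86 to −0.46, adjusted p = 2.03e-05 from limma). IFNG, which encodes its ligand, was listed at 0 in all libraries but SNS-032 replicate 1, at 0.12 FPKM.

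EPOR, on chromosome 19 from 11377205 to 11384342, was weakly expressed in these libraries. It measured 0.760, 0.450 and 0.710 FPKM with DMSO and 0.290, 0.420 and 0.170 FPKM with SNS-032. The groups did not overlap, but DMSO replicate 2 and SNS-032 replicate 2 were next to each other. Without the filter on low values its difference of −0.34 on the log2 scale had an adjusted p of 0.0131 from limma. IL10RA, the ligand-binding chain of the interleukin-10 receptor on chromosome 11 from 117986348 to 118003037, was at 0.06 FPKM or less in every library and at 0 in 3 of the 6 libraries. No difference could be seen at such levels (adjusted p = 0.399 from limma without the filter).

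**Figure D2:**
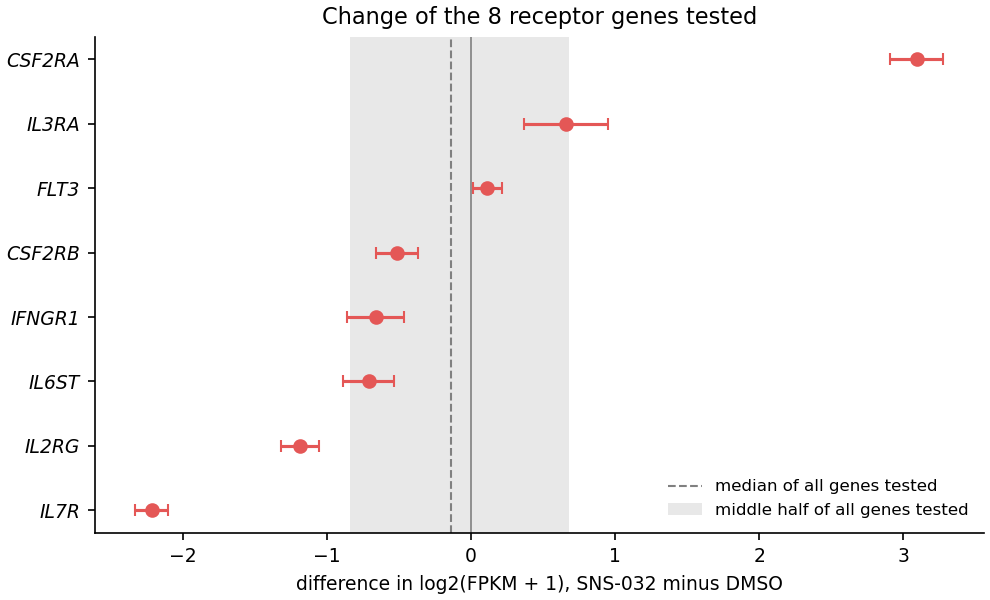
Difference between SNS-032 and DMSO in log2(FPKM + 1) for the 8 receptor genes tested, with 95% intervals from limma as bars. The dashed line is the median of all genes tested (−0.14), and the grey band spans the 25th to the 75th percentile of all genes tested (−0.84 to 0.68). CSF2RA lies above the band, and IL7R and IL2RG lie below it.

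Receptors are built from several chains, so the ratio between the chains of a receptor was compared next. FPKM is a level per transcript length, and the ratio within a library does not depend on how the library was scaled. Of 6 chain pairs, 5 had values above 0 in every library. In each of these 5 pairs the SNS-032 and DMSO libraries did not overlap, and for comparison the levels of 89.7% of all genes tested did not overlap between the groups. With 3 libraries against 3, the exact two-sided permutation test cannot give a p below 0.1. This exact test gave p = 0.1 for each of the 5 pairs, also after adjustment over them, so none of these ratios passes a threshold of 0.05.

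The GM-CSF receptor changed its balance the most. CSF2RA stood at 0.270, 0.376 and 0.270 times the level of CSF2RB in the DMSO libraries and at 6.14, 5.69 and 5.74 times in the SNS-032 libraries. The alpha chain was thus below the beta chain in every DMSO library and above it in every SNS-032 library, a ratio 19.4-fold higher with SNS-032. For the interleukin-3 receptor, the ratio of IL3RA to CSF2RB was 0.236, 0.379 and 0.248 with DMSO and 1.07, 0.645 and 0.828 with SNS-032, 2.95-fold higher. These pairs share CSF2RB and are not independent.

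The interleukin-7 receptor moved the other way. The ratio of IL7R to IL2RG was 0.578, 0.517 and 0.519 with DMSO and 0.240, 0.273 and 0.249 with SNS-032, 2.12-fold lower. IL2RG was the more abundant chain in every library. The 95% intervals of the log2 differences of the chains given above do not overlap. Each is the interval of a single gene, so they do not test the ratio. The ratio of IFNGR1 to IFNGR2, the signalling chain of the interferon-gamma receptor, was 0.557, 0.585 and 0.536 with DMSO and 0.284, 0.346 and 0.407 with SNS-032. IFNGR2 itself was at 20.3 to 23.0 FPKM with DMSO and 20.4 to 22.6 FPKM with SNS-032, and did not pass the test (log2 difference −0.02, standard error 0.0611, adjusted p = 0.725 from limma).

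For the interleukin-6 receptor, the ratio of IL6ST to IL6R, the ligand-binding chain, was 1.11, 1.34 and 0.926 with DMSO and 0.305, 0.434 and 0.391 with SNS-032, 2.98-fold lower. IL6R rose by 0.48 on the log2 scale, from between 2.95 and 3.80 FPKM with DMSO to between 4.89 and 5.77 FPKM with SNS-032 (adjusted p = 0.000292 from limma). No ratio is given for the interleukin-10 receptor because IL10RA was at 0 in some libraries. IL10RB, its second chain, which other receptors also use, fell from between 12.6 and 14.2 FPKM with DMSO to between 8.81 and 9.19 FPKM with SNS-032.

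**Figure D3:**
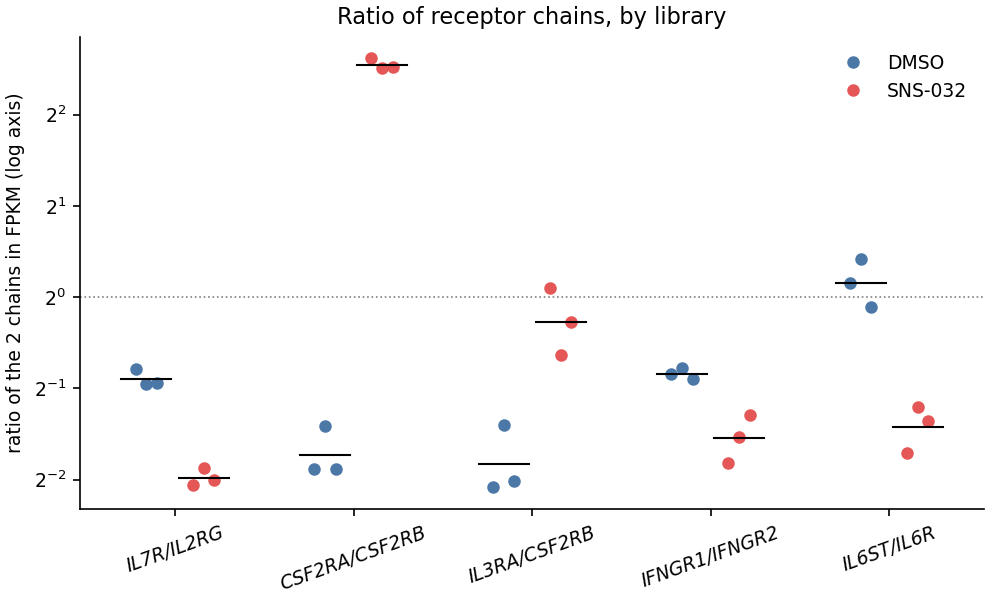
Ratio of the FPKM of 2 chains of a receptor in each library, on a log axis to base 2, for 3 DMSO libraries (blue) and 3 SNS-032 libraries (red), with the geometric mean of each group as a black line and a dotted line where the chains are equal. CSF2RA/CSF2RB was at most 0.376 with DMSO and at least 5.69 with SNS-032, and IL7R/IL2RG was 2.12-fold lower.

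The other cytokine receptor chains, a list written from textbook knowledge, were measured beside these genes. Of 41 chains, 40 were in the values and 20 were tested. Of these 20 chains, 8 were higher and 9 lower, close to the 39.9% higher and 49.3% lower among all genes tested. The other 3 chains were past neither side, and the median of the 20 chains was −0.05 on the log2 scale. The largest rise among those with at least 5 FPKM was that of IFNLR1, the chain that binds interferon lambda, from 4.38 ± 0.215 to 11.3 ± 0.891 FPKM (SD, n = 3 each), a rise of 1.19 on the log2 scale. IL9R, which pairs with the common gamma chain, rose from 3.57 ± 0.164 to 6.82 ± 0.719 FPKM, and IL12RB1, a chain of the interleukin-12 and interleukin-23 receptors, rose from 5.13 ± 0.325 to 8.06 ± 0.265 FPKM. IFNAR1 and IFNAR2, the chains for type I interferons, fell by 0.78 and 0.73 on the log2 scale. PDGFRB, a receptor tyrosine kinase, fell from 6.43 ± 0.264 to 2.89 ± 0.521 FPKM.

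Some chains outside the rule for naming genes were picked after their values were seen. CSF1R, a receptor tyrosine kinase of the same class as FLT3, fell from between 4.65 and 5.20 FPKM with DMSO to between 1.02 and 1.08 FPKM with SNS-032, by 1.52 on the log2 scale. Of the other receptors of the common gamma family, IL4R fell by 0.76 and IL15RA by 0.91 on the log2 scale, while IL21R was at 11.2 to 11.7 FPKM with DMSO and 10.7 to 12.1 FPKM with SNS-032 and did not pass the test (adjusted p = 0.670 from limma).

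Of 28 ligands, 23 were in the values and 16 of these were under the filter. The 7 tested gave 6 higher and none lower, but 5 of the 6 were under 1 FPKM with DMSO and passed the filter through the SNS-032 group alone, so this count says nothing about ligands as a group. IL15, which signals through IL2RG, rose from 0.950, 0.860 and 0.560 FPKM with DMSO to 19.0, 13.4 and 14.1 FPKM with SNS-032. IL10 rose from between 0.350 and 0.760 FPKM to between 4.89 and 5.77 FPKM, and CNTF, a neurotrophic cytokine that signals through gp130, rose from between 0.920 and 1.23 FPKM to between 4.74 and 7.32 FPKM. Among further chains of the receptors for interleukin-15 and CNTF, IL2RB was at most 0.07 FPKM in every library. CNTFR was at most 0.30 FPKM and LIFR at most 0.28 FPKM, so the rise of these ligands does not show signalling. IL7 was at most 0.14 FPKM and EPO at most 0.21 FPKM in every library.

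Of 11 kinases and STATs, 10 were tested, of which 3 were higher and 6 lower. That is 30.0% and 60.0%, beside 39.9% higher and 49.3% lower among all genes tested. JAK1, which binds IL7R, gp130 and IFNGR1, fell by 0.48, and JAK2, which binds CSF2RB, EPOR and IFNGR2, fell by 1.07 on the log2 scale. JAK3, the kinase of the common gamma chain, went from 11.6 ± 0.613 to 13.4 ± 0.420 FPKM (log2 difference 0.19, adjusted p = 0.00956 from limma), a call that was lost without DMSO replicate 1 (adjusted p = 0.0524) and with libraries rescaled to a common total (adjusted p = 0.0542). STAT5A, which interleukin-7 and GM-CSF activate, fell by 0.95, and STAT6, which interleukin-4 activates, fell by 0.71 on the log2 scale. STAT5B, outside the rule for naming genes, was more abundant than STAT5A and changed less. It went from 20.2 ± 0.503 to 16.3 ± 0.820 FPKM, a fall of 0.30, against 6.45 ± 0.115 to 2.85 ± 0.301 FPKM for STAT5A (SD, n = 3 each). STAT3, which gp130 activates, rose from 9.57 ± 0.200 to 28.8 ± 0.875 FPKM (SD, n = 3 each), and STAT2 rose by 0.28 on the log2 scale.

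Of 32 adaptors and negative regulators of these receptors, 30 were tested, of which 11 were higher and 17 lower, with a median of −0.38 on the log2 scale. In percent, 36.7% were higher and 56.7% lower, near the 39.9% and 49.3% among all genes tested. SOCS1, a feedback inhibitor of JAK kinases, rose from 1.63, 2.32 and 2.68 FPKM with DMSO to 51.2, 38.8 and 38.0 FPKM with SNS-032, by 3.77 on the log2 scale. SH2B3, the adaptor LNK that restrains JAK2 signalling, rose from 12.8 ± 0.445 to 70.7 ± 1.07 FPKM, and SOCS4 rose from 12.2 ± 0.531 to 31.9 ± 3.15 FPKM (SD, n = 3 each). Other negative regulators fell. PTPN6, the phosphatase SHP-1, fell from 220 ± 4.82 to 43.6 ± 3.39 FPKM, and PTPN2, a phosphatase of JAK1 and JAK3, fell by 1.91 on the log2 scale. LYN, a SRC family kinase, fell by 1.15. CISH and SOCS2 were named after their values were seen, and they went in opposite directions. CISH fell from between 1.05 and 1.25 FPKM with DMSO to between 0.130 and 0.200 FPKM with SNS-032, which is near the floor. The more abundant SOCS2 rose from between 7.45 and 8.35 FPKM with DMSO to between 13.9 and 15.2 FPKM with SNS-032.

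**Figure D4:**
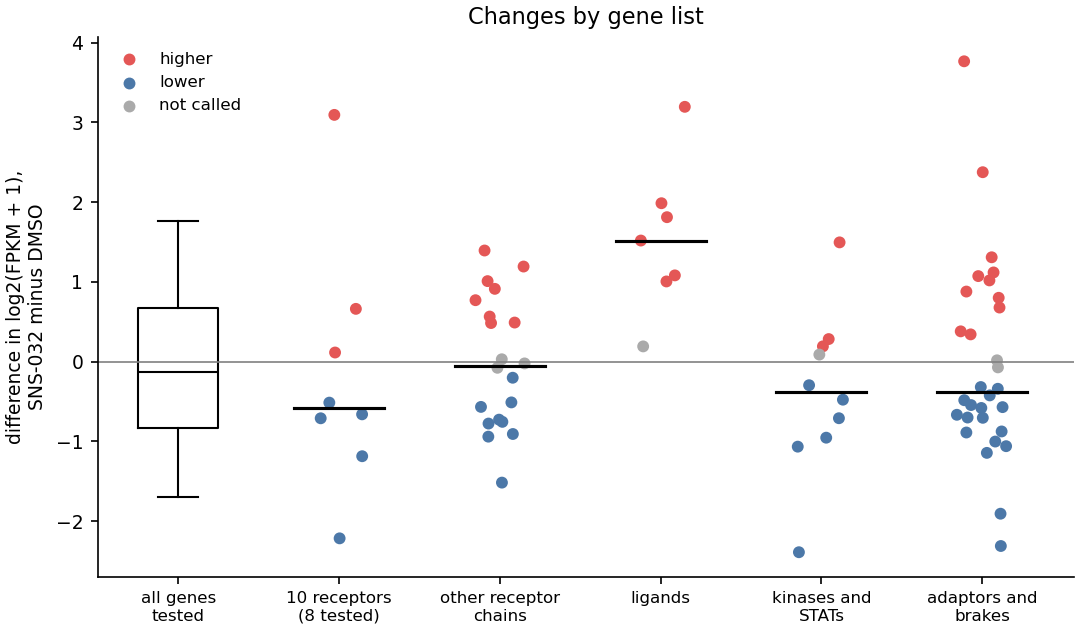
Difference between SNS-032 and DMSO in log2(FPKM + 1) for the tested genes of each list, with 1 point per gene, red for higher, blue for lower and grey for neither at an adjusted p under 0.05 from limma, and a black line at the median of the list. The box shows the 25th, 50th and 75th percentiles of all 12239 genes tested and its whiskers the 5th and 95th. CSF2RA is the highest point of the 10 receptors and SOCS1 of the adaptors and brakes, while 5 of the 7 ligands were under 1 FPKM with DMSO.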

How the data were processed

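RNA of REH cells treated with SNS-032 or DMSO was extracted with TRIzol and prepared for BGISEQ sequencing. The methods name Bowtie2 and HISAT as aligners and RSEM for the expression level. HISAT2 2.0.4 and GRCh38.p12 stand in the processing notes of the submitters. The authors deposited FPKM of 18216 genes in 6 libraries, rounded to 2 decimals. Some low values lay in steps, such as ELANE at 0.07, 0.07 and 0.14 FPKM in the SNS-032 libraries. The depth and its counting error were not estimated from such steps and are unknown. The table also holds the authors' own comparison of the treatments (a log2 fold change with its p-value and q-value), which was not used. The agent label spells the drug SNA-032, and groups were taken from the titles.

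Values were not rescaled, and 1 FPKM was added before log2, so that changes of low genes are understated. A gene was tested if either group averaged 1 FPKM or more, which 12239 did. The test was limma 3.58.1 (R 4.3.3) with the trend and robust options, adjusted by Benjamini-Hochberg over these genes. It was tried on simulated data in which few genes changed, so its behaviour where most genes change was not tested. Chain ratios were tested with scipy 1.17.1. Positions came from GENCODE v29 and promoters from RefSeq. All 10 receptor genes are named, with up to 3 rises and 3 falls per list among called genes of at least 5 FPKM, and the partner chains, except that some listed genes are not reported here by name. The genes and lists were chosen with earlier results of these data known. Genes that are on a list but not in the values were not analysed here. Alternatives were a pseudocount of 0.1, no filter, a filter on the mean of all libraries, 2 other scalings, the replicate number as a block and leaving out each library.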

Additional observations from a re-analysis of the deposited data

How the results depend on the processing

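IL7R, IL2RG, IL6ST, IFNGR1 and CSF2RB were lower and CSF2RA and IL3RA higher in all 12 alternatives of the limma fit, and FLT3 lost its call in 6 of them. Leaving out each library in turn gave 2 to 3 receptor genes higher and 5 lower. The log2 difference was then −2.25 to −2.18 for IL7R, 3.04 to 3.19 for CSF2RA and 0.55 to 0.80 for IL3RA. Replicate numbers did not pair the libraries: same-numbered libraries had correlations of −0.119, 0.0136 and −0.0164 between their deviations. For every DMSO library, an SNS-032 library of another number correlated better, at up to 0.124, 0.0869 and 0.0334. With the replicate number as a block, 2 receptor genes were higher and 5 lower, against 3 and 5, and 4862 of all genes were higher and 5989 lower, against 4882 and 6032. Without a filter on low values, and with libraries rescaled to a total of 1000000, more genes were tested. Without the filter, 16 of 40 other receptor chains were higher, against 8 of 20 with it, and 15 of 23 ligands were called. Of all 18216 genes, 6801 were then higher and 6311 lower. With the rescaled libraries, 10 of 11 ligands were called, and 5422 of all 13356 genes tested were higher and 6331 lower. In that scaling EPOR passed the filter, with a log2 difference of −0.57 (adjusted p = 0.00404 from limma). IFNGR2, which was not called, changed sign, with 0.0031 under size factors from the median of ratios and −0.072 to 0.013 when a library was left out. The log2 ratio of the chains kept its direction in all alternatives run. The unknown depth limits what can be said of genes near 0, such as IL10RA.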
